A study of Rattus norvegicus with 6 samples.

Results

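The transcripts described are those of 10 antioxidant enzymes: the superoxide dismutases Sod1 and Sod2, the catalase Cat, the glutathione peroxidases Gpx1 and Gpx4, and the peroxiredoxins Prdx1, Prdx2, Prdx3, Prdx5 and Prdx6. They were taken by symbol from the 17066 genes of the expression table. The group was chosen by the level of Sod1, which was seen to rise on knockdown of Cyclin Y, and the other 9 were added as enzymes of the same defence. The Sod1 values of the knockdown are therefore given as a description, without a test. Of the 10 transcripts, 9 had an FPKM (fragments per kilobase of transcript, scaled to the mapped fragments of the library) of at least 1 in every library. Gpx1 was listed at 0 in all 6 libraries and has no comparison.

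Superoxide leaks from the mitochondrial respiratory chain and is made by oxidases. Superoxide dismutases turn it into hydrogen peroxide, Sod1 with copper and zinc in the cytosol and Sod2 with manganese in the mitochondrial matrix. Catalase breaks hydrogen peroxide down in peroxisomes, glutathione peroxidases reduce peroxides with glutathione, and most peroxiredoxins reduce them with electrons from thioredoxin. Neurons use much oxygen and hold membranes rich in oxidisable lipids, and mutations of the human gene SOD1 cause a familial form of amyotrophic lateral sclerosis.

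The samples were primary hippocampal neurons of Sprague-Dawley rat embryos at embryonic day 18, infected with lentivirus at day 5 or 6 in vitro and harvested at day 14. The control group received EGFP, the CCNY-WT group received CCNY-WT-EGFP and overexpressed Cyclin Y, and the CCNY-shRNA group received CCNY-shRNA-EGFP and had Cyclin Y knocked down. Cyclin Y is a cyclin that the study examines as a regulator of synaptic plasticity. All groups thus carried a lentivirus and EGFP, the control virus carried no shRNA, and the groups hold no non-targeting shRNA. Each group had 2 libraries, replicates 1 and 2, and nothing in the labels says that they came from separate cultures, so p-values measure the spread between these libraries, which may be technical.

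Ccny itself matched the labels, with an FPKM of 43.1 and 42.3 (EGFP), 108 and 109 (CCNY-WT) and 5.98 and 6.19 (CCNY-shRNA). Depth relative to EGFP replicate 1 ranged from 0.818 to 1.33 between libraries, its absolute value being unknown, and 9955 to 10002 genes per library reached an FPKM of 1. The FPKM summed over all genes was 645435 in CCNY-WT replicate 1 and 543567 to 566287 in the other libraries. The 12 neuron markers summed to an FPKM of 5625 to 5776 in the 6 libraries, and the 9 listed astrocyte markers to 892 to 1099. Microglia markers summed to 0.546 to 1.41, with Aif1 and Cx3cr1 at 0 in every library. RNA came from whole cultures, in which fewer cells of a type and less RNA per cell cannot be told apart.

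The 250 bases before the start site of Sod1 are shown because it is the gene for which the group was chosen. They lie at chr11:42942573-42942822 on the + strand of the rat build GRCr8, with sequence and start site from RefSeq. This is a later build than rn4, to which the reads were aligned. The capitals mark a TATAAA motif that begins 28 bases before the start site.
Sod1: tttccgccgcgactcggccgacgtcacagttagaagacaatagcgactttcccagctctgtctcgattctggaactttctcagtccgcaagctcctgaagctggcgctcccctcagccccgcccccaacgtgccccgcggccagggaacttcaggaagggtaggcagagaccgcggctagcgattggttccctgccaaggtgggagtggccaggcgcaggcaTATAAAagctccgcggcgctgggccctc

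RefSeq promoter windows, from 250 bases before to 50 after the start site, were matched for 9 of the 10 genes, with 3 windows for Gpx4 and 11 windows in all. No entry was found for Prdx6. Each motif was searched on both strands, and overlaps between motifs were not removed. TATAAA, the core of the TATA box, occurred in the windows of Sod1 and Prdx1 and in 14.2% of the 33469 rat promoter windows. The GC box core GGGCGG occurred in 10 of the 11 windows, against 33.1% of all windows. Those 10 covered 8 of the 9 genes, all but Cat. CCAAT occurred in 4 of the 11 windows, of the genes Cat, Gpx4 and Sod1, against 37.5%. The core of the antioxidant response element, TGACNNNGC, to which the stress factor NRF2 binds, was found in the windows of Sod2, Prdx5 and Prdx1, against 12.1% of all windows. These letters did not occur in the window of Sod1. The 3 matches all lie on the strand opposite to the gene, so that the capitals in the 29 bases shown are its reverse complement. They are placed at chr1:50050185-50050213 for Sod2 and chr1:213532010-213532038 for Prdx5, both on the - strand, and chr5:135383761-135383789 on the + strand for Prdx1, all in GRCr8.
Sod2: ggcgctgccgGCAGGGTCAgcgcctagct
Prdx5: cctcctgtggGCAGAGTCAtctgcgggtg
Prdx1: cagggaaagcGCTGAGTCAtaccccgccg

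These enzymes were among the abundant transcripts of the cultures. By mean FPKM over the 6 libraries, a scale that allows for transcript length, Sod1 ranked 212, Prdx2 230, Gpx4 353, Prdx1 383 and Prdx5 566 among the 17066 genes, and the lowest of the 9, Prdx3, ranked 1905. In EGFP, Prdx2 (369 ± 2.41, SD, n = 2) and Sod1 (361 ± 21.1) were highest, and their libraries overlapped. Prdx1 (265 ± 16.5) and Gpx4 (264 ± 8.97) came next and overlapped as well. Below them, Prdx5 (179 ± 10.1), Prdx6 (105 ± 0.525), Sod2 (80.9 ± 6.34), Cat (72.0 ± 2.38) and Prdx3 (56.2 ± 2.76) each lay above the next in both libraries. In CCNY-WT, Sod1 (393 ± 16.7) and Prdx2 (384 ± 9.93) again overlapped, while Gpx4 lay above Prdx1. In CCNY-shRNA, Sod1 (478 ± 9.17) lay above Prdx2 (389 ± 25.6) in both libraries, and Gpx4 and Prdx1 overlapped. The order from Prdx5 down to Prdx3 held in all 3 groups.

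**Figure D1:**
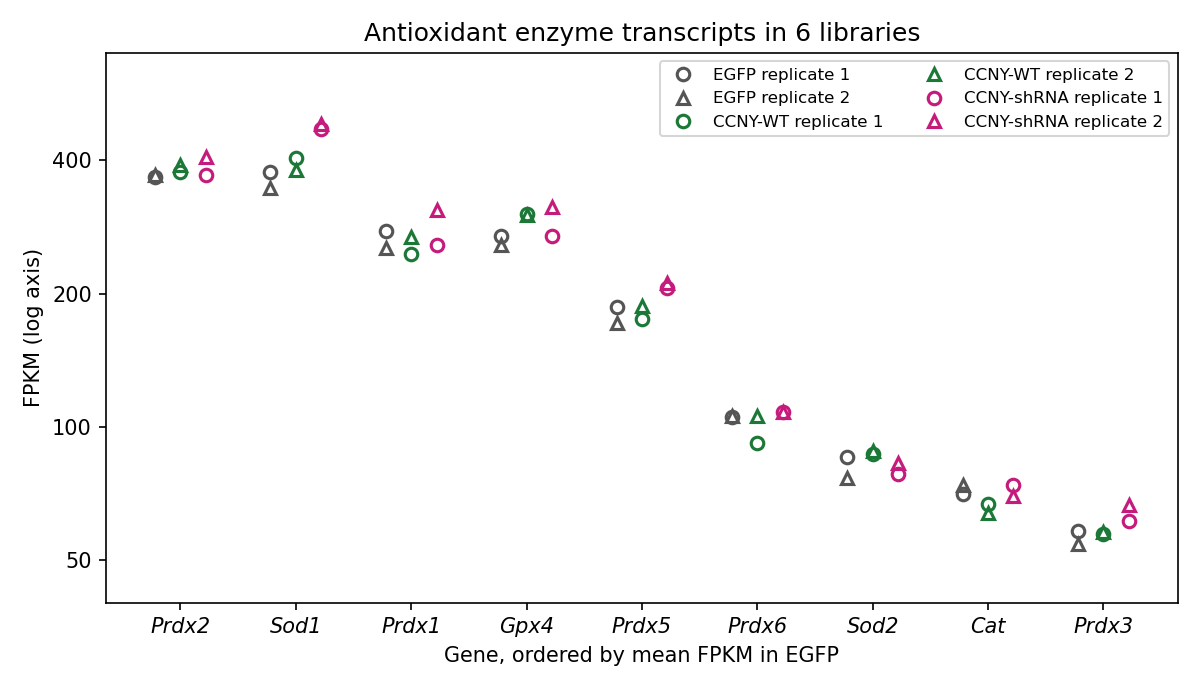
FPKM of 9 antioxidant enzyme transcripts (log axis) in each library, ordered by mean FPKM in EGFP; circles are replicate 1 and triangles replicate 2, in grey for EGFP, green for CCNY-WT and magenta for CCNY-shRNA. The order of the lower 5 genes is the same in the 3 groups, and Sod1 in CCNY-shRNA, at 471 and 484, is above every other point.

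Gpx1, the cytosolic glutathione peroxidase, was listed at 0 in every library. The table lists 3583 genes at 0 in all libraries, among them 2 of 76 genes with symbols of ribosomal proteins. Whether Gpx1 was absent or not measured cannot be told from these values, and it is given only as listed.

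Sod1, the copper and zinc superoxide dismutase of the cytosol, had an FPKM of 376 and 346 (EGFP), 405 and 381 (CCNY-WT) and 471 and 484 (CCNY-shRNA). Both knockdown libraries lay above all 4 others, and both CCNY-WT libraries lay above both EGFP libraries. The mean was 32.4% higher in CCNY-shRNA than in EGFP, a difference of 0.41 in mean log2 FPKM with a standard error of 0.0644, and it was 0.28 (SE 0.0644) above CCNY-WT on the same scale. Over the choices of processing tried, the difference from EGFP ranged from 0.35 to 0.47, and it was 0.47 without EGFP replicate 1 and 0.35 without EGFP replicate 2. The fold between the highest and the lowest library was 1.40 for Sod1 and 1.11 to 1.26 for the other 8. Sod1 was chosen for its rise in these libraries, so its standard errors, this range and this fold do not test the rise. CCNY-WT against EGFP gave 0.12 (SE 0.0644, 95% interval -0.03 to 0.27), which did not pass limma's test (adjusted p = 0.767). The same EGFP libraries served to choose Sod1, so this value is not independent of that choice.

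Sod2, the manganese superoxide dismutase of mitochondria, had a different order of groups. Its FPKM was 85.4 and 76.4 (EGFP), 86.9 and 88.3 (CCNY-WT) and 78.1 and 82.7 (CCNY-shRNA). The CCNY-shRNA libraries lay within the range of EGFP, with a log2 difference of -0.0079 (SE 0.0679, interval -0.17 to 0.15). The CCNY-WT libraries lay above both others, by 0.12 against EGFP (SE 0.0679, adjusted p = 0.798 by limma). The ratio of the Sod1 level to the Sod2 level was 4.40 and 4.53 (EGFP), 4.66 and 4.32 (CCNY-WT) and 6.04 and 5.86 (CCNY-shRNA). Neither the third superoxide dismutase, the extracellular Sod3, at an FPKM of 3.39 to 4.76, nor Ccs, the chaperone that loads copper into Sod1, at 24.5 to 32.8, passed the test in any comparison. Ccs was lowest and highest in the 2 CCNY-shRNA libraries, with a difference from EGFP of 0.04 (SE 0.131).

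**Figure D2:**
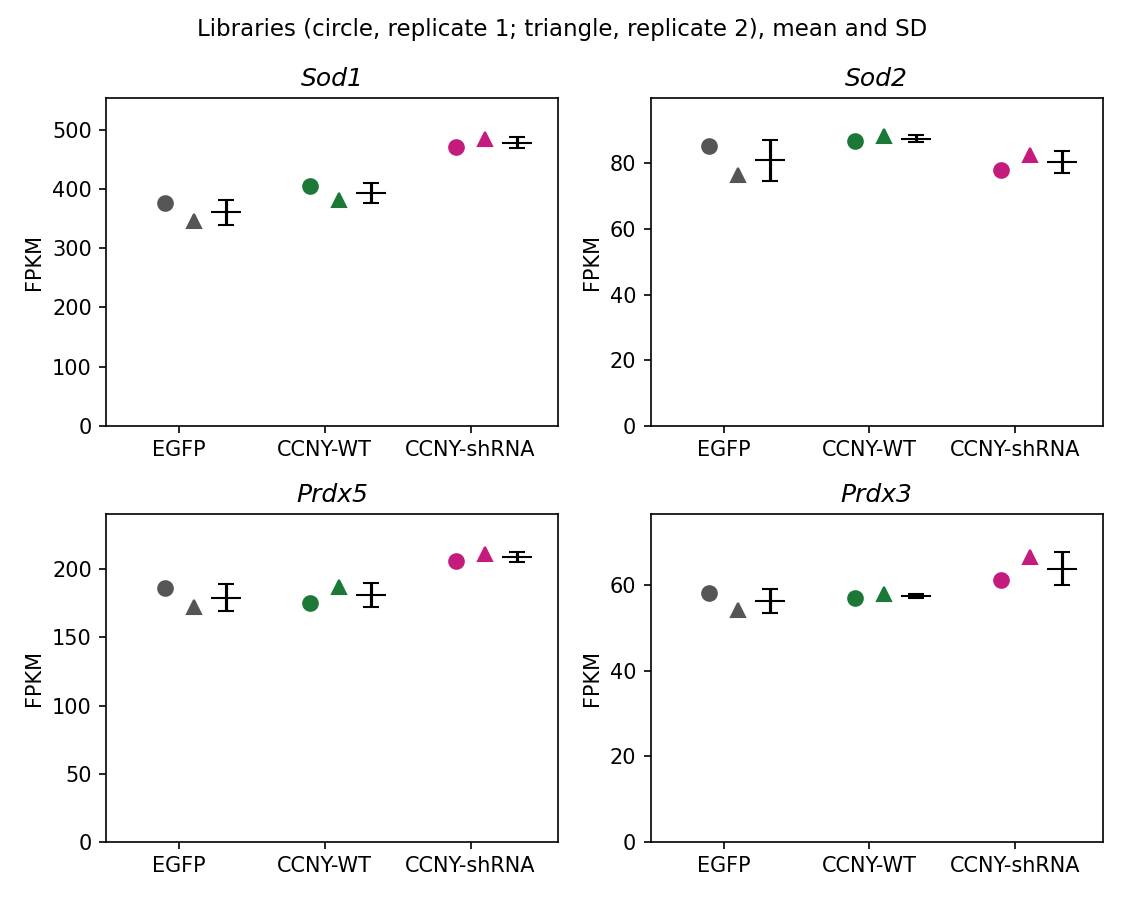
FPKM of Sod1, Sod2, Prdx5 and Prdx3 by group, axes from 0, with each library as a point and the mean and SD (n = 2) in black beside them. Sod1, Prdx5 and Prdx3 have both CCNY-shRNA libraries above the other 4, while Sod2 has them within the range of EGFP.

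Catalase had an FPKM of 70.3 and 73.7 (EGFP), 66.7 and 63.7 (CCNY-WT) and 73.8 and 69.8 (CCNY-shRNA). It was the only one of the 9 whose CCNY-WT libraries both lay under both EGFP libraries, by 0.14 on the log2 scale (SE 0.0601), and this did not pass the test over all genes (adjusted p = 0.729 by limma). On knockdown its difference from EGFP was -0.0047 (SE 0.0601, interval -0.14 to 0.13).

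Gpx4, the glutathione peroxidase that reduces lipid peroxides within membranes and guards against ferroptosis, had an FPKM of 270.2 and 258 (EGFP), 303 and 301 (CCNY-WT) and 269 and 313 (CCNY-shRNA). Both CCNY-WT libraries lay above EGFP, with the largest difference of the 9 members in that comparison, 0.20 (SE 0.0761, interval 0.02 to 0.37). It did not pass the test over all genes (adjusted p = 0.725 by limma). CCNY-shRNA replicate 1 lay within the range of EGFP and replicate 2 above all other libraries, with a difference of 0.14 (SE 0.0761) from EGFP.

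Prdx2, the cytosolic peroxiredoxin prominent in neurons, had an FPKM of 367 and 370.3 (EGFP), 377 and 391 (CCNY-WT) and 371 and 407 (CCNY-shRNA). Its differences from EGFP were 0.06 in CCNY-WT and 0.08 in CCNY-shRNA (SE 0.0628 each). Prdx1, its cytosolic relative, was at 276 and 253, then 246 and 269, then 257 and 309 in the same order, and the ranges of all 3 groups overlapped. Prdx6, which draws on glutathione rather than thioredoxin and also acts as a phospholipase, was at 104.9 and 106, then 91.9 and 106, then 107.8 and 107.8. Its libraries were nearly equal but for CCNY-WT replicate 1.

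Among the members, Prdx5 and Prdx3 stood nearest to Sod1 in their pattern, though they ranked only 568 and 731 in closeness over all tested genes. Prdx5, found in mitochondria, peroxisomes and cytosol, had an FPKM of 186 and 172 (EGFP), 175 and 187 (CCNY-WT) and 206 and 211 (CCNY-shRNA). Prdx3, located in mitochondria, was at 58.2 and 54.3, then 57.1 and 57.8, then 61.1 and 66.5. For both, the 2 knockdown libraries lay above the other 4. Their differences between CCNY-shRNA and EGFP were 0.22 (SE 0.0618, interval 0.08 to 0.37) and 0.18 (SE 0.0665, interval 0.03 to 0.34). Neither passed the test over all genes (adjusted p = 0.124 and 0.202 by limma). The differences between CCNY-WT and EGFP were 0.02 and 0.03.

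In CCNY-WT against EGFP, 0 of the 9 measured members passed limma's adjusted threshold of 0.05, where 0.00982% of the 10188 tested genes did, a single gene that was Ccny. At an unadjusted p under 0.05, 1 member was higher (Gpx4) and 1 lower (Cat), against 6.83% of all tested genes. Sod1 is left out of the next count, since the EGFP libraries also served to choose it. Of the other 8, 3 were higher without overlap (Sod2, Gpx4 and Prdx2), against 20.3% of all tested genes, and 1 was lower (Cat), against 19.2%. The median difference of the 9 was 0.03. The widest interval, that of Prdx1, ran from -0.26 to 0.18.

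In CCNY-shRNA against EGFP, Sod1 was chosen for its rise and is left out of the counts. Of the other 8 measured members, 0 passed limma's adjusted threshold, where 76 of all genes did, 0.746% of those tested, 17 (0.167%) higher and 59 (0.579%) lower. With the libraries scaled to one upper quartile the split over all genes was 29 higher and 59 lower. The smallest adjusted p among the 8 was 0.124, for Prdx5, and 2 of them, Prdx5 and Prdx3, had an unadjusted p under 0.05, against 18.6% of all genes. The libraries did not overlap for 4 of the 8, all higher (Prdx2, Prdx3, Prdx5 and Prdx6), against 23.9% of all tested genes higher and 24.5% lower. The median difference of the 8 was 0.08, against 0.00 over all tested genes. Both comparisons use the same EGFP libraries, so their values are not independent. The neuron marker sum was 5750 and 5706 in CCNY-shRNA and 5675 and 5776 in EGFP. Of its 12 genes 1 passed limma's test: Gad2, which makes the transmitter GABA, fell from 170.4 and 173 to 129 and 129 (adjusted p = 0.0226). Gad1, the other enzyme of GABA synthesis in that list, was at 189 and 188 against 183 and 187 (-0.028, adjusted p = 0.813). Camk2a at -0.18 (adjusted p = 0.214 by limma) and Tubb3 at 0.16 (adjusted p = 0.193) also had an unadjusted p under 0.05. Without overlap, 3 of the 12 were higher and 5 lower. The astrocyte sum was 892 and 1099 against 978 and 1041, with Fabp7 its most abundant gene, and 3 of the 9 astrocyte markers had a difference above 0, with a list median of -0.13. Of the 9, 0 passed limma's adjusted threshold and 2 had an unadjusted p under 0.05, both lower without overlap: the glutamate transporters Slc1a2 at -0.32 (adjusted p = 0.0768) and Slc1a3 at -0.24 (adjusted p = 0.183). The oligodendrocyte lineage sum was 40.3 and 37.3 against 44.6 and 44.2. Of 3 tested vascular and meningeal markers 1 passed, Mgp, which rose from 4.07 and 5.11 to 14.3 and 21.5 (adjusted p = 0.0144 by limma). Lum, the most abundant of that list, was at 50.1 and 56.0 against 46.0 and 49.0 (-0.16, adjusted p = 0.308), and Dcn was 0.24 higher (adjusted p = 0.317). Endothelial Cldn5 was at 0 in every library. In the fits without limma's trend, or with only the 4 libraries compared, Gad2 and Mgp were not both called. The part of cell makeup in the Sod1 values was not tested.

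**Figure D3:**
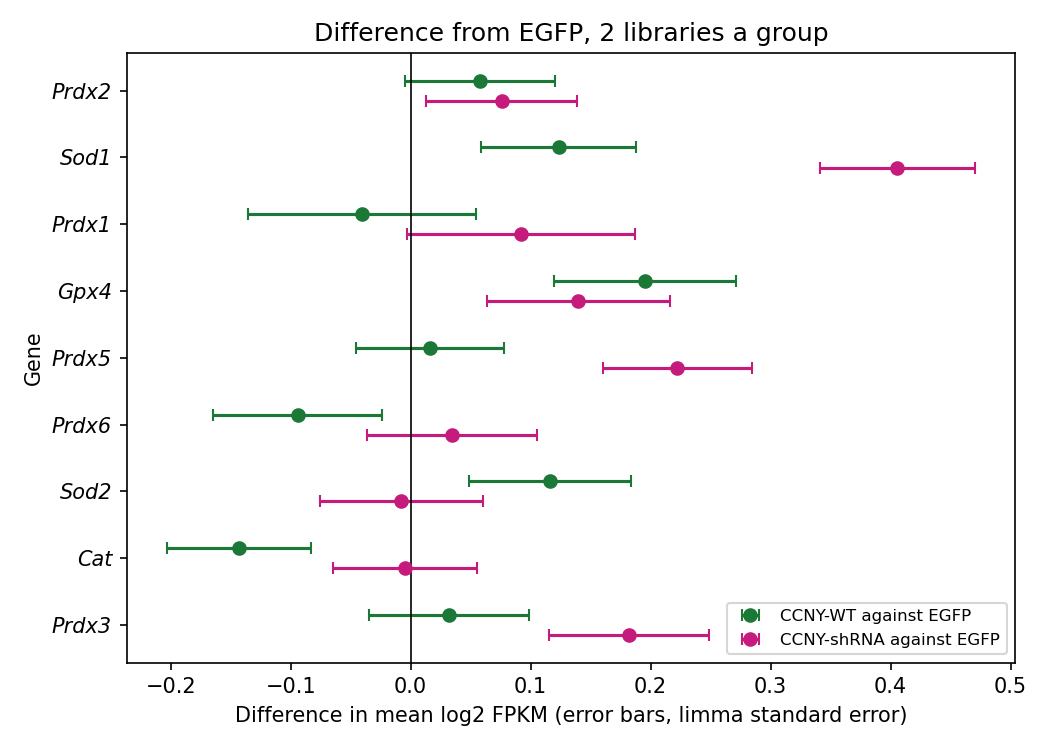
Differences in mean log2 FPKM from EGFP for the 9 measured enzymes, CCNY-WT in green and CCNY-shRNA in magenta, with limma's standard error as bars. Sod1 in CCNY-shRNA, at 0.41, is farthest from 0, and Gpx4 at 0.20 and Cat at -0.14 are farthest in CCNY-WT.

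CCNY-shRNA against CCNY-WT gave 0 calls among the 8 members other than Sod1, where 0.216% of all genes were called, 0.0196% higher and 0.196% lower. Both CCNY-shRNA libraries lay above both CCNY-WT libraries for 4 of these 8, Cat, Prdx3, Prdx5 and Prdx6, against 20.3% of all tested genes, and below them for Sod2, against 21.9%. Prdx5 was 0.21 higher (SE 0.0618, adjusted p = 0.271 by limma), Prdx3 0.15 (adjusted p = 0.424) and Cat 0.14 (adjusted p = 0.414), and Sod2 was at -0.12 (adjusted p = 0.519). Prdx5 alone of the 8 had an unadjusted p under 0.05, against 12.2% of all genes.

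Summed over the members, the FPKM was 1795 and 1709 (EGFP), 1808 and 1845 (CCNY-WT) and 1896 and 2052 (CCNY-shRNA). Without Sod1 it was 1419 and 1363, then 1403 and 1463, then 1425 and 1568, so that CCNY-shRNA replicate 1 then lay among the other groups. The share of Sod1 in this sum was 21.0% and 20.3% (EGFP), 22.4% and 20.7% (CCNY-WT) and 24.9% and 23.6% (CCNY-shRNA).

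**Figure D4:**
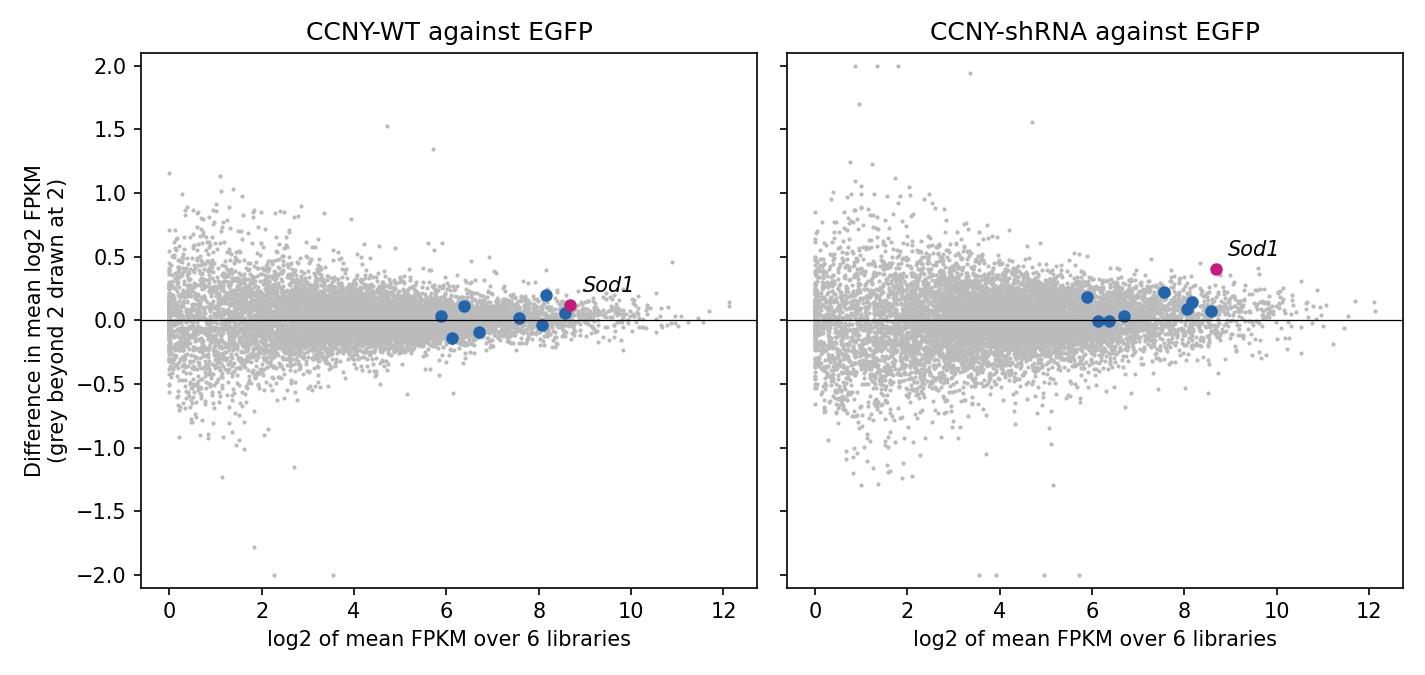
Difference in mean log2 FPKM from EGFP against log2 of the mean FPKM for all 10188 tested genes (grey), with Sod1 in magenta and the other 8 members in blue. In CCNY-WT all 9 lie within the cloud between -0.14 and 0.20. In CCNY-shRNA Sod1 is the highest of the 9 at 0.41, with other tested genes such as Cox17 (0.48) above it.

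The genes whose 6 log2 values, set relative to the EGFP mean, were closest to those of Sod1 were Eif1a (distance 0.114), Eif1ad (0.122), Trappc13 (0.124), Rfxap (0.128) and Cfl2 (0.129). Their Pearson's r with Sod1 was 0.961 to 0.981 over 6 libraries that share their groups and controls. They were picked as the nearest of all tested genes, so a high r follows from that choice. Among the members, Prdx5 ranked 568, Prdx3 731 and Gpx4 1250 in closeness to Sod1, and Cat, the farthest, 5474.

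The enzymes rely on other genes for their electrons, metals and control, and 7 lists of such genes were examined, with 80 genes tested in all. By limma's adjusted threshold, 0 of the 80 passed in any of the 3 comparisons. At an unadjusted p under 0.05 there were 7 higher and 3 lower in CCNY-WT against EGFP, 16 higher and 3 lower in CCNY-shRNA against EGFP, and 8 higher and 3 lower in CCNY-shRNA against CCNY-WT. All genes tested gave 3.83% higher and 3% lower in the first comparison, 9.2% higher and 9.36% lower in the second, and 5.05% higher and 7.12% lower in the third. The genes named from these lists were fixed by name or as the most abundant of a list. Exceptions are Cox17, Msrb2, Taldo1, Hmox2, Sqstm1, Ftl1, Gsta1 and Mgst1, chosen after their values were seen.

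Of 4 tested relatives of the members, Prdx4, the peroxiredoxin of the endoplasmic reticulum, was at an FPKM of 12 and 14.2 in both EGFP libraries and 9.98 to 10.1 in the other 4 libraries. Its log2 differences were -0.38 in both CCNY-WT (adjusted p = 0.724) and CCNY-shRNA (adjusted p = 0.153), against the same EGFP libraries. Gpx8, the most abundant of these relatives in EGFP, was at 25.7 to 32.5 in all libraries. Gpx3, the secreted glutathione peroxidase, ranged from 2.88 to 6.00.

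Of 21 tested genes of glutathione synthesis and use, 3 were higher and 2 lower on knockdown at an unadjusted p under 0.05, with a list median of 0.14. The 2 lower were Gsta1 at -0.34 (SE 0.107, adjusted p = 0.153 by limma) and Mgst1 at -0.47 (SE 0.183, adjusted p = 0.221). Gsr, which regenerates reduced glutathione, had an FPKM of 21.2 and 21.2 (EGFP), 22.3 and 24.5 (CCNY-WT) and 28.6 and 25.5 (CCNY-shRNA), a difference of 0.35 on knockdown (SE 0.0892, adjusted p = 0.107). Gclc and Gclm, the subunits of the enzyme that limits glutathione synthesis, differed from EGFP by 0.14 (SE 0.0842) and 0.19 (SE 0.133) in CCNY-shRNA. Slc7a11, which imports cystine for it, was at -0.22 (SE 0.137) and Gstp1, a glutathione transferase, at -0.16 (SE 0.107). Mgst3, a membrane-bound glutathione transferase, was the most abundant at 244 and 267 (EGFP) against 270.5 and 292 (CCNY-shRNA).

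Of 14 tested genes of the thioredoxin system and of methionine sulfoxide repair, 5 were higher and 0 lower on knockdown at an unadjusted p under 0.05, with a median of 0.11. Txnip, which binds and inhibits thioredoxin, had an FPKM of 3.60 and 3.90 (EGFP), 3.75 and 4.70 (CCNY-WT) and 8.96 and 5.85 (CCNY-shRNA). Both knockdown libraries lay above the rest, but 0.95 on the log2 scale (SE 0.226) did not pass (adjusted p = 0.0934). Msrb2, a mitochondrial methionine sulfoxide reductase, was at 1.41 and 1.62, then 1.07 and 1.70, then 3.24 and 3.06, with a difference of 1.06 (adjusted p = 0.0944). Srxn1, which restores overoxidised peroxiredoxins, was at 23.4 and 24.8 in EGFP and at 27.8 to 31.4 in the 4 other libraries (0.29 on knockdown, adjusted p = 0.145, and 0.26 in CCNY-WT, adjusted p = 0.725). The thioredoxin Txn1 and its reductase Txnrd1, the electron source of most peroxiredoxins, differed by 0.07 (SE 0.121) and 0.10 (SE 0.0648) on knockdown. Sepw1, a small selenoprotein and the most abundant of this list, had an FPKM of 1033 and 1005 (EGFP) against 1139 and 1290.0 (CCNY-shRNA) (adjusted p = 0.156).

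Of 14 tested NRF2 regulators and targets, 3 were higher and 0 lower on knockdown at an unadjusted p under 0.05, with a median of 0.03. The 3 were Hmox2, the constitutive haem oxygenase, at 0.26 (SE 0.0658, adjusted p = 0.112), Sqstm1, an autophagy receptor that binds Keap1, at 0.25 (SE 0.0673, adjusted p = 0.120), and Ftl1, the ferritin light chain, at 0.24 (SE 0.0890, adjusted p = 0.206). Among the targets most used as readouts, Nqo1, a quinone reductase, was at -0.17 (SE 0.113) and Hmox1, which degrades haem, at -0.18 (SE 0.0897). Nfe2l2, which encodes NRF2, had an FPKM of 4.51 and 4.93 (EGFP) against 3.48 and 4.39 (CCNY-shRNA), and its inhibitor Keap1 17.0 and 19.0 against 18.9 and 17.5. Fth1, the ferritin heavy chain that stores iron, was the most abundant of the list at 1201 to 1505.

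Of 9 tested genes of copper and metal handling with the redox sensor Park7 (DJ-1), 1 was higher on knockdown at an unadjusted p under 0.05. It was Cox17, which carries copper to cytochrome oxidase in mitochondria, with an FPKM of 142 and 118 (EGFP), 144 and 161 (CCNY-WT) and 179 and 182 (CCNY-shRNA). The difference of 0.48 (SE 0.0909) had an adjusted p of 0.0634. Atox1, the copper chaperone of the secretory pathway, Park7 and Mt3, the metallothionein of brain and the most abundant of the list, differed by 0.10, 0.12 and -0.02 (SE 0.0847, 0.0768 and 0.105).

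Of 12 tested genes of NADPH supply, which feeds both reductase systems, 4 were higher on knockdown at an unadjusted p under 0.05, with a median of 0.03. Taldo1, of the pentose phosphate pathway, was at 108 and 106 (EGFP), 116 and 127 (CCNY-WT) and 131 and 124 (CCNY-shRNA) (0.25, SE 0.0619, adjusted p = 0.0990). Tkt, of the same pathway and the most abundant, was at -0.03, the cytosolic isocitrate dehydrogenase Idh1 at -0.07 and the mitochondrial transhydrogenase Nnt at -0.28 (SE 0.0510, 0.0555 and 0.158). Of 6 tested sources of superoxide and peroxide, 0 had an unadjusted p under 0.05 in any comparison. Maoa, the monoamine oxidase that releases hydrogen peroxide, was at 35.4 and 32.9 (EGFP) against 36.6 and 39.2 (CCNY-shRNA), and Cyba, a subunit of NADPH oxidases, ranged from 0.467 to 2.23.

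**Figure D5:**
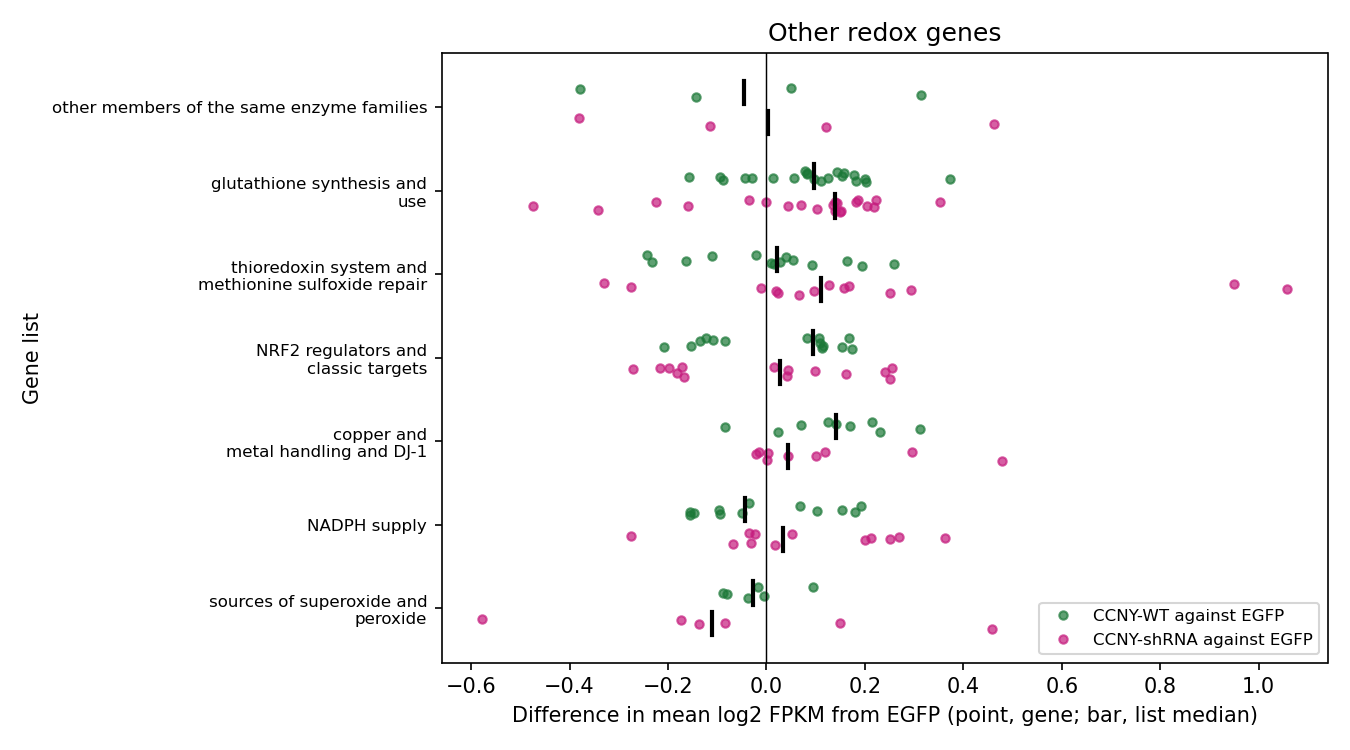
Differences in mean log2 FPKM from EGFP for the tested genes of 7 redox lists, 1 point a gene, CCNY-WT in green and CCNY-shRNA in magenta, with list medians as black bars. The knockdown medians lie between -0.11 and 0.14, and Msrb2 (1.06) and Txnip (0.95) are the points farthest to the right, neither past the adjusted threshold.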

How the data were processed

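RNA was sequenced from 6 libraries, 2 for each group. The authors aligned paired-end reads to rn4 with TopHat2 2.0 and Bowtie2 2.1.0 and deposited Cufflinks 2.2.1 FPKM values (versions per the submitters' processing notes), 1 value per gene and library. Scaling between libraries and the treatment of pseudogene copies are not given in the sources used here. Members and lists were chosen with earlier results of these data known. Before the log2 transformation, FPKM values under 1 were set to 1. The 10188 genes that reached an FPKM of 1 in 2 libraries were fitted over all 6 libraries with limma 3.58.1 in R 4.3.3 (empirical Bayes with a trend) and adjusted by the Benjamini-Hochberg method at 0.05. With 2 libraries a group an exact permutation test cannot go below p = 0.333, so none was used. For the simulated CCNY-shRNA against EGFP comparison, 97.5% of 200 genes changed by 1 on the log2 scale were recovered among 10188, with 9 false calls. The simulated spread followed expression level alone, and the largest difference of a member was 0.41. The share recovered therefore does not apply to changes as small as those of the members. Relative depth came from the steps between FPKM values of genes under 0.3 in every library. It is their most common ratio to EGFP replicate 1, which 32.3% to 40.3% of such genes held. Genes named were the 10 members, Ccny, names fixed in each list, the most abundant gene of each list in EGFP, list genes past the threshold and the 5 genes nearest to Sod1 in log2 pattern. Values of a gene that this rule covers are not reported here. Gad1, Gad2, Camk2a, Tubb3, Slc1a2, Slc1a3, Fabp7, Mgp, Lum, Dcn, Cldn5, Cox17, Msrb2, Taldo1, Hmox2, Sqstm1, Ftl1, Gsta1 and Mgst1 were named after their values were seen. Promoter sequences and start sites were those of RefSeq for GRCr8. Tables were made with pandas 2.3.3 and numpy 2.4.6, and figures with matplotlib 3.10.9, in Python 3.11.15. Alternatives covered the offset, the filter, scaling, the spread's estimate, a block by replicate, the study's thresholds without a test and leaving out each library. The study's thresholds were applied here to all 17066 genes, not to the 10188 tested. They gave more genes in both comparisons with EGFP than the study reported, which also names cuffdiff for its selection.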

Additional observations from a re-analysis of the deposited data

How the results depend on the processing

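In each comparison 135 differences of members were recomputed. The direction turned in 7 for CCNY-WT against EGFP, 7 for CCNY-shRNA against EGFP and 4 for CCNY-shRNA against CCNY-WT. The cause was not tested. The changes of filter, the fit without the trend, the fit with 4 libraries only and the replicate block left the differences as they were. Leaving out a library of the group outside the comparison did so as well. Such settings cannot turn a direction, so these counts are not shares of 135 values free to turn. When 1 library was left out, the differences that turned ranged in CCNY-WT against EGFP from -0.11 to 0.025 for Prdx1, -0.018 to 0.082 for Prdx3, -0.041 to 0.073 for Prdx5 and -0.20 to 0.0070 for Prdx6. In CCNY-shRNA against EGFP they ranged from -0.088 to 0.072 for Sod2, -0.044 to 0.035 for Cat and -0.041 to 0.23 for Prdx1, and in CCNY-shRNA against CCNY-WT from -0.16 to 0.053 for Gpx4, -4.22e-04 to 0.27 for Prdx1 and -0.049 to 0.085 for Prdx2. Quantile normalization turned Prdx5 in CCNY-WT against EGFP to -0.0015, and Sod2 and Cat in CCNY-shRNA against EGFP to 4.57e-04 and 0.0099.

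The number of members called, Sod1 left out of both comparisons with CCNY-shRNA, was 0 in each comparison and under every alternative run. Genes called in CCNY-WT against EGFP, 1, were 3 with log2(FPKM + 1) and with a filter on the mean, 872 by the study's threshold without a test, and 0 to 1 when 1 library was left out. In CCNY-shRNA against EGFP, 76, they were 2 with no filter, 1 without the trend, 1 with 4 libraries only, 1352 by the study's threshold, and 1 to 7 when 1 library was left out. In CCNY-shRNA against CCNY-WT, 22, they were 2 with no filter, 1 without the trend, 1 with 4 libraries only, and 1 to 8 when 1 library was left out. The correlation of replicate differences over 6572 genes was 0.24 between EGFP and CCNY-WT, -0.0447 between EGFP and CCNY-shRNA and 0.151 between CCNY-WT and CCNY-shRNA. With no reference value for it, whether replicate numbers pair the samples is not settled. The fit with the replicate block called 1, 39 and 18 genes in the 3 comparisons.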
